A study of Mus musculus with 26 samples.

Results

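Peaks of ATRX were set against peaks of EZH2 in mouse embryonic fibroblasts (MEFs) whose endogenous ATRX lacked its RNA binding region (ATRXΔRBR cells). A peak of a target was kept where a peak of replicate 1 overlapped a peak of replicate 2 by at least 1 bp, and it has the coordinates of replicate 1. This left 2054 ATRX peaks and 9458 EZH2 peaks. An ATRX peak that overlapped a kept EZH2 peak was called a shared position, and the remaining peaks were called ATRX-only and EZH2-only positions. There were 1027 shared, 1027 ATRX-only and 8431 EZH2-only positions, 10485 in all, out of 272147 peaks in the 16 peak lists of the series. The rule used overlap alone, so place, width, sequence, H3K27me3 and RNA level had no part in the choice.

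The series profiled ATRX, EZH2 and the histone mark H3K27me3 by CUT&RUN, and polyadenylated RNA by RNA-Seq, in female MEFs with 2 replicate libraries per target and genotype. CUT&RUN uses a protein A-tethered nuclease to release the chromatin fragments that an antibody binds in permeabilized cells. WT cells carried the full-length gene. ATRXΔRBR cells are a clone made with Cas9 and paired guide RNAs, with puromycin used to kill untransfected cells, so that effects of the deletion and of the clone cannot be told apart. Cells labelled ATRXKD, made with an shRNA and selected with puromycin, were used only for EZH2 and H3K27me3 peaks and for RNA. The ATRX antibody was made and purified by the authors, and the EZH2 antibody was commercial. No IgG library was used here to set peaks against an antibody background. The study's methods do not state whether its peak calls used one. The study calls the replicates biological, and the labels do not say whether they came from separate cultures.

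ATRX is a chromatin remodeler of the SWI/SNF family that, together with the histone chaperone DAXX, places the histone variant H3.3 at telomeres, pericentromeric satellites and other repeats. EZH2 is the methyltransferase of Polycomb repressive complex 2 (PRC2), which also needs EED and SUZ12 and makes H3K27me3, the mark of genes silenced by Polycomb. In many cell types PRC2 collects at CpG-rich promoters of developmental regulators such as the Hox genes.

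Sequences of single positions illustrate the motifs described further on. Each is the central 200 bp of a peak on the plus strand of GRCm38 (the build called mm10 in the processing notes), read from the RefSeq copy of that assembly. Shared and EZH2-only positions were taken by their rank of −log10 q among those whose printed bases touched no exon. The Mon1b position lay 316 bp upstream of Mon1b, a gene for a factor of endosome maturation, and the Trpm6 position lay within Trpm6, a magnesium channel gene. Capitals mark the box CCAAT (or ATTGG) in the former and the AP-1 core TGACTCA (or TGAGTCA) in the latter.
Shared, Mon1b promoter, chr8:113635171-113635370: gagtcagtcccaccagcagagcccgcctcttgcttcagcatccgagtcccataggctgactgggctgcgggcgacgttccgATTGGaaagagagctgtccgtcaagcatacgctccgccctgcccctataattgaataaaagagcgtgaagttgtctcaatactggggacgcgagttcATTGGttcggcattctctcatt
Shared, Trpm6 gene body, chr19:18890420-18890619: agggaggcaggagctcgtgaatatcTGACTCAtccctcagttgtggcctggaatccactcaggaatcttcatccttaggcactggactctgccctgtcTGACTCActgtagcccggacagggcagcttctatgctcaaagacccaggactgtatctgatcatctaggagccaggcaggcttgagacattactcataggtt

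The ATRX-only pair was not taken by rank but chosen after the values were seen, and it does not stand for the class. The former of them was the best ranked with under 50% annotated repeat and fold enrichments of at least 3, 5499 bp from the long non-coding RNA gene 7420700N18Rik, and held none of the marked motifs. The latter, within the gene Gm31793, was chosen for its AP-1 core, which is in capitals.
ATRX-only, intergenic near 7420700N18Rik, chr8:31373214-31373413: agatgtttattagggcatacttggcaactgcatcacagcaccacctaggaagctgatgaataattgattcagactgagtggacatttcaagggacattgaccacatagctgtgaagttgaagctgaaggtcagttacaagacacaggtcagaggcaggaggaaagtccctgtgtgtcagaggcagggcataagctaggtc
ATRX-only, Gm31793 gene body, chr10:130566487-130566686: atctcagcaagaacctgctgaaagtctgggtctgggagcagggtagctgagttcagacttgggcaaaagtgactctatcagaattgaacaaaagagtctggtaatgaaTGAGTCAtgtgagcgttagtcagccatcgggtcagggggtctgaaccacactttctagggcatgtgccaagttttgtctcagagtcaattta

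An EZH2-only position lay at Sox14, a transcription factor gene of neural development. The peak was 9636 bp wide, so that its centre lay 5692 bp downstream of the transcription start site (TSS). Capitals mark CG dinucleotides.
EZH2-only, Sox14, chr9:99870378-99870577: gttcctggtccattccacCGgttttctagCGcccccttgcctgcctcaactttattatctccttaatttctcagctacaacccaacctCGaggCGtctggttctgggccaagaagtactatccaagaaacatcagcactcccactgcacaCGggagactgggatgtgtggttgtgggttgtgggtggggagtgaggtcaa

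The ATRX lists of replicates 1 and 2 held 6274 and 4813 peaks, and the EZH2 lists 22418 and 11408. Of the ATRX peaks, 32.7% of replicate 1 and 42.9% of replicate 2 had a peak in the other replicate, and of the EZH2 peaks 42.2% and 83.6%. Read depth of the CUT&RUN libraries cannot be read from peak lists. The RNA-Seq libraries of ATRXΔRBR summed to 9574175 and 13694802 estimated counts. As a check of the cells, 13 of 14 fibroblast markers had at least 5 TPM (the RNA level scaled to gene length and library) in both ATRXΔRBR libraries. Summed TPM of the marker lists for blood, endothelial, epithelial, pluripotent and muscle cells lay between 0.14 and 10.2 in these libraries, against 21713 and 23705 for the fibroblast list, and the neural list summed to 41.2 and 35.2, mostly from Map2 and Sox2. Atrx RNA was at 233 and 141 TPM in WT, and 175 and 124 TPM in ATRXΔRBR, whose deletion a gene total cannot resolve. In the libraries labelled ATRXKD it was at 331 and 512 TPM, above both WT libraries, and they are called by that label throughout. ATRX protein was not measured in the files used here. The study, with western blots, describes ATRX protein as depleted in its knockdown cells and as comparable between WT and ATRXΔRBR cells.

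Of the 2054 kept ATRX peaks 1027 were shared with EZH2, but of the kept EZH2 peaks only 10.9% were shared with ATRX. Kept EZH2 peaks covered 0.415% of the genome and reached 16.5% of all TSS windows, the 2 kb on each side of an annotated TSS. The single replicates gave very different shares, 74.6% of ATRX peaks in replicate 1 and 39.5% in replicate 2, in the order of the sizes of their EZH2 lists. With kept EZH2 peaks trimmed to the 2054 of highest −log10 q it was 13.9%. In WT cells the replicate shares were 65.3% and 62.5%. The ATRXΔRBR mean of 57.0% ± 24.8 (SD, n = 2) and the WT mean of 63.9% ± 2.00 (SD, n = 2) did not differ beyond the spread (exact two-sided permutation test, p = 1, where the smallest p that 2 against 2 can give is 0.333).

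The size of the ATRX-only class also rested on the EZH2 list used. Of the 1027 ATRX-only positions, 541 overlapped a peak of EZH2 replicate 1 and 68 a peak of replicate 2, which leaves 422 with EZH2 in neither ATRXΔRBR list. These 422 are 20.5% of the kept ATRX peaks, and 229 of them were also free of EZH2 in both WT lists. Of the EZH2-only positions, 6029 (71.5%) had an ATRX peak in neither list. In shared positions, which overlap by definition, the midpoints were a median of 105.5 bp apart, and 56.3% of the ATRX peaks lay wholly inside the EZH2 peak.

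The classes lay in different places. Of the shared positions on assembled chromosomes 50.6% (519 of 1025) were within 2 kb of a TSS, 277 elsewhere in a gene and 22.3% between genes. For ATRX-only positions the shares were 15.6% (158 of 1010), 43.2% and 41.2%, and for EZH2-only positions 74.0%, 15.9% and 10.1%. ATRX-only positions had the lowest TSS share in each replicate as well, at 15.2% and 14.4%. Shared and EZH2-only positions changed order between replicates, with 58.1% and 44.8% of the shared against 48.1% and 70.9% of the EZH2-only positions at a TSS. Seen from ATRX, 76.5% of its 678 peaks at a TSS and 36.9% of its 1376 other peaks were shared. When only protein-coding TSSs were counted, the TSS share of ATRX-only positions was 6.04%, below the 45.7% of shared and 68.8% of EZH2-only positions.

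**Figure D1:**
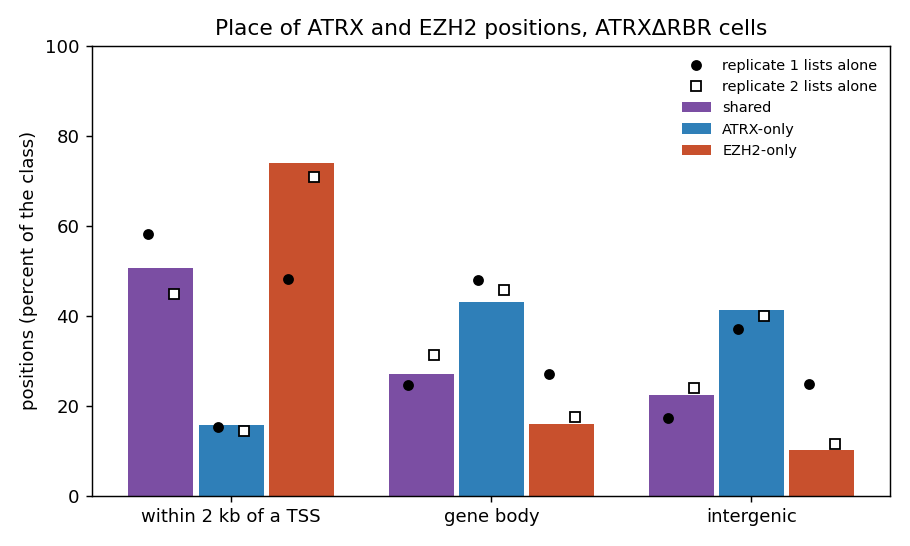
Share of shared, ATRX-only and EZH2-only positions in ATRXΔRBR cells (y axis, percent of the class) within 2 kb of a TSS, elsewhere in a gene, or intergenic (x axis). Bars show positions kept in both replicates, and points show replicate 1 or replicate 2 lists alone. ATRX-only positions stay near 15% at TSSs in every list, while the shared and EZH2-only points cross.

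Around the TSS, ATRX peaks of shared positions lay upstream of EZH2-only peaks. Of the shared positions, 460 had the midpoint of the ATRX peak within 2 kb of a protein-coding TSS, with a median of 36 bp upstream. Of the EZH2-only positions, 5621 had the midpoint of the EZH2 peak there, with a median of 84 bp downstream. These midpoints belong to different targets. The EZH2 peaks of the shared positions had a median of 39 bp downstream, with 42.5% upstream of the TSS, against 58.3% of their ATRX peaks and 33.7% of the EZH2-only peaks. In replicate 1 alone the medians were 19 bp upstream for ATRX peaks of shared positions, 60.5 bp downstream for their EZH2 peaks and 84.5 bp downstream for EZH2-only peaks. In replicate 2 they were 34.5 bp upstream, 1.5 bp upstream and 55 bp downstream, in the same order. Only 52 ATRX-only positions lay this close, and 49.3% lay more than 50 kb from any protein-coding TSS, against 20.3% of the shared and 8.01% of the EZH2-only positions.

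**Figure D2:**
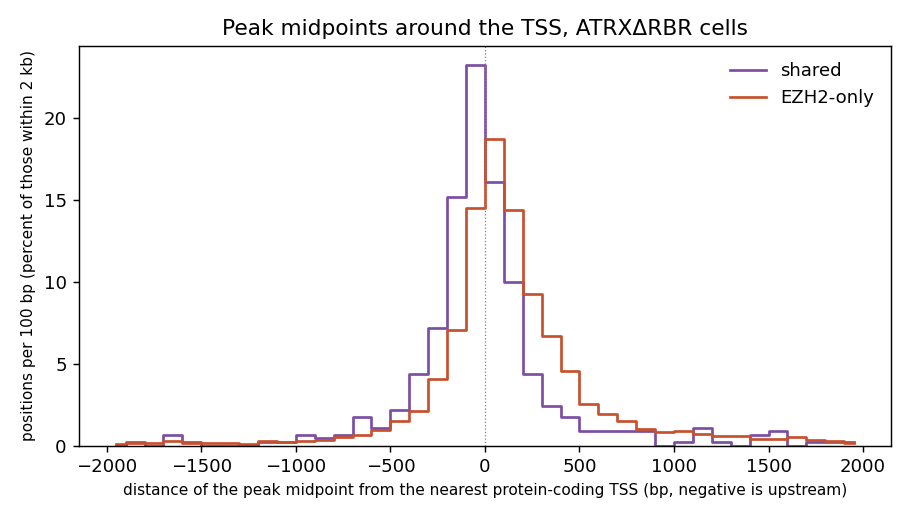
Distance of peak midpoints from the nearest protein-coding TSS (x axis, bp, negative is upstream) for 460 shared positions (ATRX peaks) and 5621 EZH2-only positions (EZH2 peaks) in ATRXΔRBR cells, as percent of the class per 100 bp (y axis). The shared line peaks just upstream of the TSS and the EZH2-only line just downstream.

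EZH2-only positions were the widest. Their median width was 858 bp (quartiles 522 to 1393), against 440 bp (309 to 676.5) for the ATRX peaks of shared positions and 416 bp (279 to 702) for ATRX-only positions. The order of EZH2-only above both other classes held in each replicate alone, with 522 and 436 bp against 387 and 345 bp for shared and 322 and 328 bp for ATRX-only positions. This order sets EZH2 peaks against ATRX peaks, which come from different antibodies and libraries. The EZH2 peaks of shared positions had a median of 732 bp. At a TSS they were wider than EZH2-only peaks, with 1072 against 951 bp in replicate 1 and 587 against 477 bp in replicate 2. Elsewhere they were narrower, with 480 against 535 bp and 310 against 356 bp.

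The widest EZH2-only positions were domains over developmental regulators. In 178 the peak was 5 kb or more, and 177 of these lay in H3K27me3, compared with 316 of the 1973 positions under 500 bp. The widest, 111846 bp at chr15:102937676-103049521, reached within 2 kb of the TSSs of Hoxc4 to Hoxc12. None of these patterning genes of the body axis was above 0.15 TPM. The next, 38522 bp wide, reached within 2 kb of the TSSs of Hoxa9, Hoxa10, Hoxa11 and Hoxa13. Others of the 10 widest lay at Nkx2-3, Uncx, Lbx1, Pax2, Tlx1, Vax2 and Onecut3, which encode homeodomain or paired box transcription factors. The 151 protein-coding genes with such a wide position at the TSS had median RNA levels of 0 and 0.02 TPM in the ATRXΔRBR libraries. Where the position was 500 to 1000 bp wide, the medians were 36.2 and 33.4 TPM. Of the 1027 shared EZH2 peaks, 2 reached 5 kb, and no shared ATRX peak did.

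Among the classes, H3K27me3 was found almost only at EZH2-only positions. The mark also lay outside the classes. An H3K27me3 peak at the TSS was found for 1982 protein-coding genes with no position, beside 1126 EZH2-only genes. Kept H3K27me3 peaks of ATRXΔRBR cells overlapped 1890 (22.4%) of the EZH2-only positions, 9 (0.878%) of the shared positions and 0 of 1010 ATRX-only positions. When the ATRX, EZH2 and H3K27me3 lists of a single replicate were used, the shares were 37.1% and 23.0% for EZH2-only, 0.834% and 1.27% for shared and 1.08% and 0.347% for ATRX-only positions. In both replicates the EZH2-only share was far above the others, while shared and ATRX-only positions changed order. EZH2-only positions in H3K27me3 had a median width of 1675 bp, and those outside it 776 bp. EZH2 was thus called without H3K27me3 at 6541 EZH2-only positions and at 1016 shared ones.

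Most ATRXΔRBR positions were also called in WT cells. ATRX peaks of WT replicates 1 and 2 overlapped 80.2% and 76.2% of the shared and 82.0% and 82.3% of the ATRX-only positions. The WT EZH2 lists overlapped 98.2% and 95.5% of the shared positions and 98.1% and 98.4% of the EZH2-only positions, but also 61.5% and 46.4% of the positions that were ATRX-only in ATRXΔRBR cells. The ATRX lists of WT held 23.0% and 9.57% of the EZH2-only positions. H3K27me3 of WT overlapped 0 of the ATRX-only positions in each replicate, as in ATRXΔRBR cells.

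**Figure D3:**
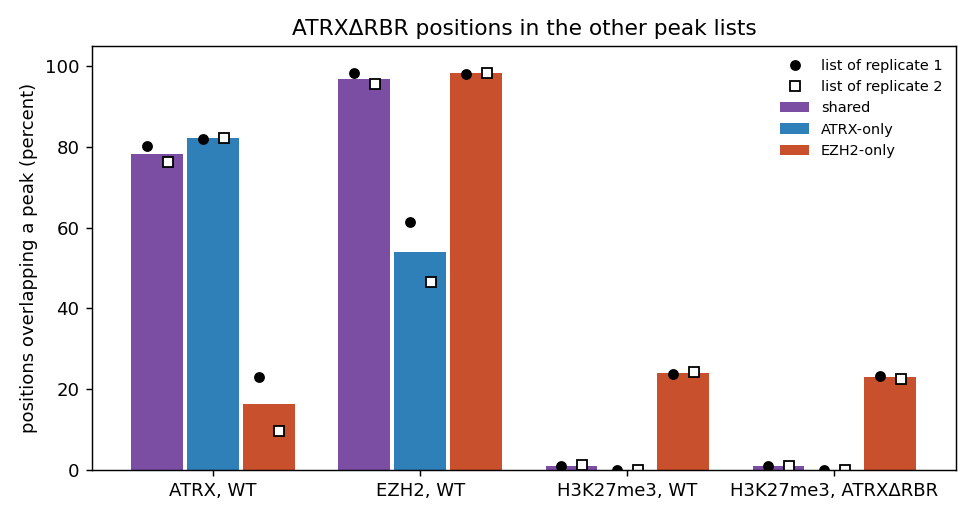
Percent of ATRXΔRBR positions of each class (y axis) that overlap a peak in the lists named on the x axis. Points are the lists of replicates 1 and 2 and bars are their mean. WT ATRX covers about 80% of shared and of ATRX-only positions, and WT EZH2 nearly all shared and EZH2-only positions. Among the classes, H3K27me3 is found almost entirely at EZH2-only positions.

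GC content differed by class and by place. Over the 300 bp at the midpoint, the median GC content was 54% at shared, 47% at ATRX-only and 63% at EZH2-only positions. Within 2 kb of a TSS it was 60%, 48.3% and 66%, and elsewhere 49.3%, 46.7% and 52.7%. In the single replicates, shared positions at a TSS had 61% and 59.3% and EZH2-only positions 64% and 65.7%. The ratio of observed to expected CpG had medians of 0.458, 0.208 and 0.769. On average 7.45% of the bases of shared, 14.7% of ATRX-only and 7.47% of EZH2-only windows lay in annotated repeats. All lay below the 36.3% of windows taken every 50 kb over the genome. Within 2 kb of a TSS the values were 6.10%, 19.4% and 6.53%, beside 19.1% for all annotated TSSs and 10.3% for protein-coding TSSs. The median GC content was 41.3% for genome windows, 49.3% for all annotated TSSs and 58% for protein-coding TSSs.

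A set of 15 short motifs was searched on both strands of these windows. Matches of different motifs may overlap. A match is a description of the letters and not a bound site.

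The AP-1 core, recognized by Fos and Jun dimers, was frequent outside TSS windows in both classes with ATRX. It was present at 258 of 506 shared (51.0%) and 375 of 852 ATRX-only positions (44.0%) outside TSS windows, against 4.80% of genome windows taken every 50 kb and 4.46% of all TSSs. In EZH2-only positions outside TSS windows the share was 22.9%, made up of 4.79% of the 773 inside H3K27me3 and 32.7% of the 1421 outside it. EZH2-only positions with ATRX in 1 of the 2 lists reached 42.2%, and those with ATRX in neither 15.9%. In the single replicates the share was 42.4% and 52.6% for shared, 34.5% and 43.5% for ATRX-only and 16.7% and 23.6% for EZH2-only positions, which was the lowest in both. ATRX-only positions with EZH2 in neither list had 45.2%. At TSSs the AP-1 core was at 8.86% of shared, 29.1% of ATRX-only and 3.27% of EZH2-only positions.

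The AP-1 matches clustered at the peak centre. Outside TSS windows, the central 100 bp held 28.9 matches of the AP-1 core per 100 shared positions, 23.0 per 100 ATRX-only and 13.4 per 100 EZH2-only positions. At the edges, 400 to 500 bp from the midpoint, there were 3.66, 4.52 and 1.48 per 100 bp and 100 positions. In WT cells the AP-1 core was at 51.0% of shared, 44.3% of ATRX-only and 29.2% of EZH2-only positions outside TSS windows.

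At TSSs it was the CCAAT box, recognized by NF-Y, that set shared positions apart. It was present at 57.2% of the 519 shared positions at a TSS, 36.1% of the 158 ATRX-only and 30.0% of the 6237 EZH2-only positions, where all annotated TSSs had 38.1% and protein-coding TSSs 36.7%. In replicates 1 and 2 alone the CCAAT box was at 1357 of 2716 and 51.4% of shared, 31.8% and 37.4% of ATRX-only and 27.4% and 33.3% of EZH2-only positions. The central 100 bp held 42.6 matches of the CCAAT box per 100 shared positions, and 17.7 and 17.2 per 100 ATRX-only and EZH2-only positions. Windows were centred on ATRX peaks for shared and ATRX-only positions and on EZH2 peaks for EZH2-only positions. Near protein-coding TSSs the median midpoint was 36 bp upstream for shared and 84 bp downstream for EZH2-only positions. What part this had in the CCAAT shares was not tested. Away from TSSs the CCAAT box was at 30.4%, 32.2% and 28.6%, below the 40.6% of genome windows in each class. The GC box (GGGCGG), bound by Sp1, was at 65.9% of shared and 64.9% of EZH2-only positions at a TSS, and at 13.3% of ATRX-only ones, with 23.7% of all annotated TSSs.

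**Figure D4:**
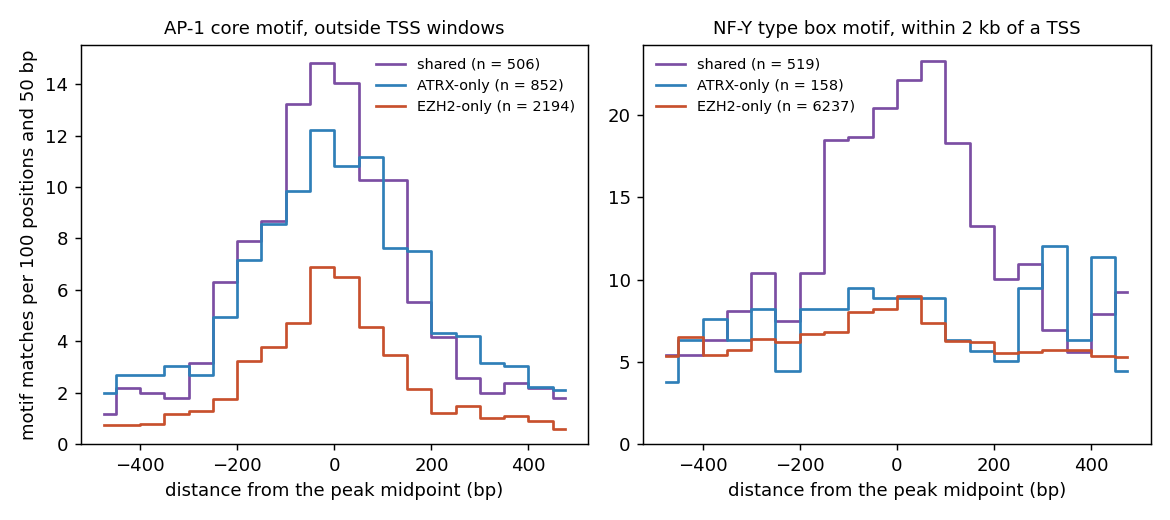
Matches of TGACTCA outside TSS windows (left) and of CCAAT within 2 kb of a TSS (right), on either strand, per 100 positions and 50 bp (y axis), by distance from the peak midpoint (x axis, bp), for the classes in ATRXΔRBR cells. AP-1 matches peak at the centre in every class and are densest in shared and ATRX-only positions, and CCAAT matches peak at the centre of shared positions.

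Of the other motifs, TEAD letters (CATTCC) were at 27.5% of shared and 27.2% of ATRX-only positions outside TSS windows, against 16.7% of EZH2-only positions and 15.8% of genome windows. ETS letters (CCGGAAG) were at 11.8% of shared and 13.5% of EZH2-only positions at a TSS and at 3.80% of ATRX-only ones, where all annotated TSSs had 6.19%. The E-box (CACGTG) lay between 4.94% and 7.71% in every class and place, with 5.25% of all annotated TSSs. The CTCF part (CCACNAG) was at 15.5% to 19.3%, against 15.8% of all annotated TSSs and 11.6% of genome windows. The NRF1 part (GCGCATG) was at 0.94% to 5.53% by class and place, and at 2.77% of all annotated TSSs. GATA letters, spelled as GATAAG, were at 3.50% to 6.33%, below the 7.84% of all annotated TSSs. For the octamer part, searched as ATTTGCA, the values were 2.23% to 4.23%, with 4.77% of all annotated TSSs. The STAT motif, searched as TTC on each side of any 4 bases, was at 13.4% to 27.2%, and at 22.6% of all annotated TSSs. Runs of 6 G, the motif called G run, were at 6.34% to 21.7% of positions, with 18.5% of protein-coding TSSs. The CA repeat, searched as CACACAC, was at 5.39% to 12.6%, and at 8.99% of all annotated TSSs. The GA repeat, searched as GAGAGAG, was at 6.55% to 11.0% apart from ATRX-only positions at a TSS, with 19 of 158, and at 10.1% of all annotated TSSs.

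At least 1 copy of TTAGGG, the telomere repeat, was at 8.09% to 9.48% of shared and EZH2-only positions by place. The share was 12.3% for ATRX-only positions, against 11.3% of genome windows. Tracts with at least 10 copies in 300 bp were found at 14 ATRX-only positions, which the 12.3% includes. They were at 0 shared positions, 0 EZH2-only positions and 0 of 52950 genome windows. Their place was intergenic for 10 of the 14, and they lay on 11 chromosomes. The ATRX lists of replicates 1 and 2 alone held 21 and 28 ATRX-only tracts. In WT cells 21 kept ATRX-only positions held a tract, and of the 14 all were in ATRX list 1 and 13 in ATRX list 2 of WT. EZH2 was called at 0 of the 14 in both ATRXΔRBR lists and at 1 and 0 in the WT lists, but at 13 and 13 in the lists labelled ATRXKD. A tract matches many places in the genome. Reads were mapped with Bowtie2 at default settings, which place a read with equally good matches at 1 of them by chance, so a read cannot be tied to 1 tract.

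A further set of ATRX-only positions had a low fold enrichment over the local background. In 19 of them, and in 0 shared positions, the deposited fold enrichment in replicate 1 was under 2. The −log10 q of the 19 reached 12.15 in replicate 1, beside a median of 2.35 over all ATRX-only positions. These 19 included peaks around chr2:98662216-98667333, chr9:3000091-3038292 and chr14:19415700-19419592, and the mitochondrial genome from base 44 to base 16220. The predicted genes Gm10800, Gm10801, Gm21738 and Gm10719 lay at these positions and were 4 of the 8 best ranked protein-coding genes of the class. Without the positions under 2, an alternative chosen after the values were seen, 50.5% of the kept ATRX peaks were shared.

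Positions were also spread unevenly over chromosomes. Chromosome 15 held 8.45% of the kept ATRX peaks and 3.58% of protein-coding TSSs, and chromosome 5 held 8.85% and 5.74%. Chromosome 7 held 2.26% and 9.22%, and the X chromosome 0.786% and 4.32%. EZH2-only positions lay on the same side of the TSS share on each, with 5.18%, 8.92%, 5.40% and 1.85%, so this was not particular to ATRX. The WT ATRX peaks had 6.79%, 8.32%, 2.13% and 1.63% on these chromosomes. They differed elsewhere, with 9.92% against 5.65% of the ATRXΔRBR peaks on chromosome 10 and 3.97% against 1.57% on chromosome 6.

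Genes with a shared position at the TSS were mostly expressed. Of 21877 protein-coding genes with RNA values, 557 (2.55%) had a shared position within 2 kb of the TSS, 67 (0.306%) an ATRX-only position, 6539 (29.9%) an EZH2-only position and 14712 none, and 2 had both single-target kinds. The median level of the shared genes was 45.1 and 40.8 TPM in the ATRXΔRBR libraries. ATRX-only genes were at 25.3 and 23.2 TPM, EZH2-only genes at 30.4 and 26.7 TPM, and genes with no position at 0 TPM in both. In each library shared genes had the highest median. A level of at least 5 TPM in both libraries was reached by 87.1% of the shared, 65.7% of the ATRX-only, 76.9% of the EZH2-only and 27.8% of the remaining genes. In bulk RNA, less RNA per cell and fewer cells with it cannot be told apart.

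EZH2-only genes fell into 2 groups by H3K27me3. The 1126 with an H3K27me3 peak at the TSS had medians of 0.375 and 0.355 TPM, and 56.2% were under 1 TPM in both libraries. The 5413 without it were at 38.3 and 34.5 TPM, below the 45.9 and 41.7 TPM of the 540 shared genes without H3K27me3 in both libraries. The share of genes with a shared position rose with RNA level, from 0.396% of those under 1 TPM to 6.10% of those at 100 TPM or more in replicate 1, and from 0.345% to 5.87% in replicate 2. The share with an EZH2-only position went from 9.08% under 1 TPM to 53.8% at 20 to 100 TPM and 50.7% above in replicate 1. The median of the ATRX-only genes varied with the settings. Pooled over both libraries it was 21.3 TPM. It came to 6.56 TPM with the replicate 1 peaks alone, to 3.90 TPM when positions with EZH2 in either list were left out and to 35.3 TPM when the midpoint had to lie in the window.

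**Figure D5:**
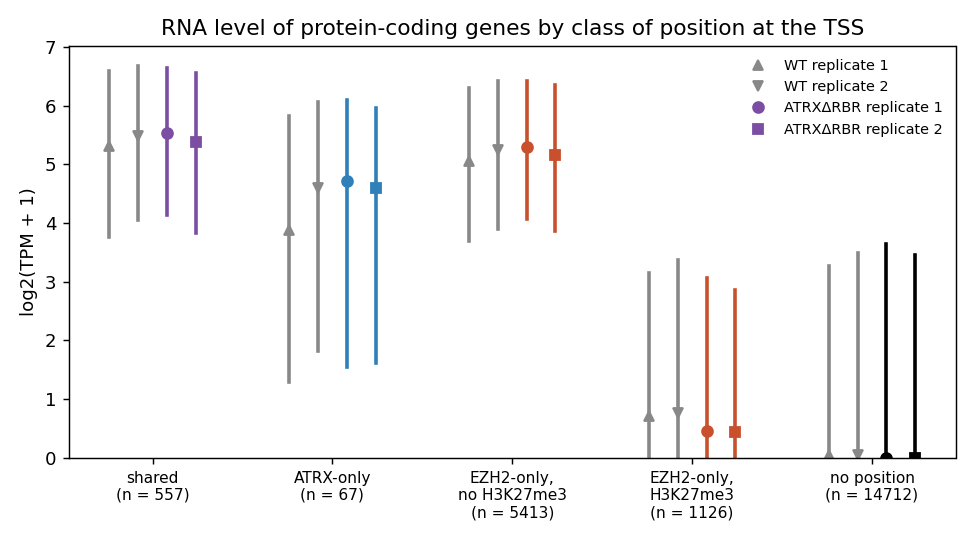
Median (point) and quartiles (line) of log2(TPM + 1) over the protein-coding genes of each class (y axis) in each library. Grey triangles are WT and coloured points ATRXΔRBR replicates. Shared genes and EZH2-only genes without H3K27me3 lie between 5 and 6, and EZH2-only genes with H3K27me3 below 1.

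Gene types differed as well. Of the 738 annotated genes of all types with a shared position at the TSS, 76.0% were protein-coding, close to the 78.3% of the 8374 EZH2-only genes. Of the 195 genes with an ATRX-only position, 34.4% were protein-coding, another 39 (20%) were long intergenic RNAs and 9.23% were small nuclear RNAs. Over all annotated genes on assembled chromosomes these shares were 39.6%, 10.6% and 2.50%. The protein-coding share of ATRX-only genes was thus near that of the annotation, and those of the other classes were above it.

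Replication-dependent histone genes, which package newly made DNA in S phase, had the most shared positions of the gene lists. Of 67, 22 (32.8%) had a shared and 33 an EZH2-only position at the TSS, and 1 had H3K27me3, where all protein-coding genes had 2.55% and 29.9%. Among the shared ones were Hist1h1c, Hist1h4i, Hist1h3a and Hist1h3c. Hist1h1c, a linker histone gene, was at 25.9 and 38.5 TPM in the ATRXΔRBR libraries, and the others were between 0 and 6.13 TPM. These messages are not polyadenylated as a rule, their coding sequences are near copies of each other, and neighbouring genes share positions, so RNA levels and counts of single genes are uncertain.

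Many developmental regulators had EZH2-only positions. Over all protein-coding genes 29.9% were EZH2-only, 2.55% shared and 67.2% without a position. Of 39 Hox genes 26 had an EZH2-only and 0 a shared position, and 23 had H3K27me3 at the TSS. Neighbouring Hox genes can have the same position, 1 of which served 8 of them, so these are counts of genes and not of positions. Of 63 Fox and Sox factors 31 were EZH2-only and 1, Foxo3, was shared, at 37.4 and 31.6 TPM in ATRXΔRBR. Foxo3 acts downstream of insulin signalling. Among 86 other homeobox factors 36 were EZH2-only and 0 shared, and among 29 Wnt ligands and Frizzled receptors 19 and 0. EZH2-only members could be well expressed, such as Hoxb9 at 65.9 and 66.0 TPM, Foxc1 at 64.2 and 66.4 TPM and Wnt10b at 138 and 141 TPM. Of the collagens, 8 of 44 were EZH2-only and 0 shared, of 34 imprinted genes 6 and 0, and of 55 clustered protocadherins 1 and 0. Of 1412 olfactory and vomeronasal receptor genes, 3 were EZH2-only and 1 was ATRX-only.

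Other lists were set beside the 2.55% of all protein-coding genes that were shared. Of protein-coding genes at 100 TPM or more in ATRXΔRBR replicates 1 and 2, the shared made up 6.10% and 5.87%. Subunits of oxidative phosphorylation had 6 shared of 76 (7.89%), among them Cox7a2 at 513 and 658 TPM and Uqcrq at 449 and 672 TPM in the ATRXΔRBR libraries. Cytosolic ribosomal protein genes had 4 of 82 (4.88%), Zfp zinc finger genes 11 of 391 (2.81%), and the MCM and GINS subunits of the replicative helicase 1 of 10, Gins4. Lists added after the values were seen give no support of their own. Of 23 genes of cholesterol synthesis 7 were shared, namely Sqle, Cyp51, Mvk, Mvd, Stard4, Tm7sf2 and Idi1, and 12 were EZH2-only. Sqle, the squalene epoxidase gene, was at 938 and 859 TPM. Of 17 chaperones of the heat shock type, Stip1, Hspa8, Hsph1 and Bag3 were shared.

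Of all protein-coding genes 29.9% were EZH2-only and 67.2% had no position, beside which genes of the complexes themselves were counted. At 20 to 100 TPM the EZH2-only share was 53.8% and 52.9% in ATRXΔRBR replicates 1 and 2. Median levels in these libraries were 70.5 and 53.5 TPM for PRC2 genes and 38.7 and 35.0 TPM for PRC1 genes. Of the 12 PRC2 genes 6 were EZH2-only, among them Ezh2 at 246 and 206 TPM, Suz12 at 135 and 99.4 TPM and Eed at 98.6 and 91.2 TPM, and of 20 PRC1 genes 12 were. Of 15 genes for ATRX partners and H3.3 chaperones, 6 were EZH2-only, Daxx among them at 29.3 and 34.5 TPM. Cbx5, which encodes the heterochromatin protein HP1α, and Asf1b, a histone chaperone gene, had shared positions. Atrx had none. Of 7 genes that the study used as examples, Ccdc191 was shared, Gins2, Fzd7 and Rnf40 were EZH2-only, and Slc25a16, Parp12 and Qtrt2 had no position at the TSS. The study shows Gins2 with a gain of ATRX signal in ATRXΔRBR cells and uses Fzd7 in its account of genes that gain ATRX. Its 6274 ATRX regions equal the replicate 1 list in number, while here a peak had to recur in both replicates. Of the EZH2-only positions 2402 overlapped an ATRX peak in at least 1 list.

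The best ranked shared positions at protein-coding TSSs included those at Etv5, Mon1b, Gna12, Kmt5c, Wbp1, N4bp2l2 and Wdpcp. Etv5, an ETS transcription factor gene (chr16:22381309-22439719), had a 457 bp ATRX peak 66 bp upstream of its TSS, with fold enrichments of 7.09 and 5.65 for ATRX and 10.2 and 5.28 for EZH2. Its RNA was at 4.08 and 4.76 TPM in ATRXΔRBR and 2.67 and 1.72 TPM in WT, and it did not pass the test of ATRXΔRBR against WT. Kmt5c, which makes trimethylated H4K20 (chr7:4740115-4747514), had fold enrichments of 5.98 and 7.24 for ATRX and 6.65 and 6.41 for EZH2, at 31.0 and 27.1 TPM. Of these 7, only Gna12, a G protein subunit gene, had H3K27me3 at its TSS, and it was at 74.4 and 76.2 TPM. ATRX-only positions ranked best, apart from the predicted genes named above, at Cxcl5, Asmt, Med15 and Cflar. The Cxcl5 peak lay 1751 bp downstream of the TSS of this neutrophil chemokine gene, with fold enrichments of 6.41 and 6.41. The best EZH2-only positions were at Col2a1, Tchh, Pax2, Sox14, Lbx1, Rtn4rl1, Nptx1 and Ntng2. All 8 had H3K27me3 and fold enrichments of 11.7 to 15.1 in replicate 1, and all except Col2a1 were at or below 0.07 TPM in ATRXΔRBR.

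RNA was then compared between ATRXΔRBR and WT cells by class with edgeR's quasi-likelihood test. Of 16287 genes tested 1120 passed an adjusted p of 0.05 (6.88%), 455 higher (2.79%) and 665 lower (4.08%) in ATRXΔRBR. With at least 10 counts in every library the split turned round, with 315 higher and 282 lower. Among protein-coding genes, the background for the classes, it was 8.39%, with 3.35% higher and 5.03% lower. Of the shared genes tested 16 of 525 passed (3.05%), 9 higher and 7 lower, a share below that background. Of the ATRX-only genes 4 of 56 passed (7.14%), and of the EZH2-only genes 323 of 5889 (5.48%). Of 6200 genes with no position 11.6% passed. Within EZH2-only genes, those with H3K27me3 passed in 154 of 670 cases (23.0%), with 32 higher and 122 lower, and those without in 169 of 5219 (3.24%). The median log2 fold change of shared genes was −0.02, of ATRX-only genes 0.07 and of EZH2-only genes −0.02, beside −0.02 for all protein-coding genes. Differences between classes were not tested, since genes are not replicates. Without WT replicate 2, 27 shared genes passed, and without WT replicate 1 or 2, 7 ATRX-only genes did. With no filter on low counts 25 shared and 11 ATRX-only genes passed, and with at least 10 counts in every library 215 EZH2-only genes, 68 lower and 21 higher among those with H3K27me3.

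The shared gene that rose most was Blnk, an adaptor of B cell receptor signalling (chr19:40928927-40994535), at 32.2 and 31.7 TPM in WT and 106 and 112 TPM in ATRXΔRBR. Its log2 fold change was 1.71 ± 0.19 (SE, edgeR adjusted p = 0.0018). Gpt2, a mitochondrial alanine aminotransferase gene, went from 45.6 and 50.3 to 118 and 111 TPM (log2 1.21 ± 0.16, edgeR adjusted p = 0.0044). Radil, an effector of Rap GTPases, and Rab7b, a GTPase gene of late endosomes, also rose, by 1.48 and 1.10 on the log2 scale. Tle4, a corepressor gene, was at 2.17 and 2.55 TPM in WT and 0.40 and 0.59 TPM in ATRXΔRBR (log2 −2.27 ± 0.37, edgeR adjusted p = 0.0093). Crlf2, a receptor subunit for the cytokine TSLP, went from 37.9 and 27.3 to 9.20 and 9.96 TPM (log2 −1.63 ± 0.27, edgeR adjusted p = 0.010). The kinase gene Nuak1 and Lrig1, a restraint on growth factor receptors, fell by 1.51 and 1.12. The others that passed were Scd1, Matn2, Slc1a4, Hjurp and Cdk20, which were higher, and Dsel, Ereg and Fosl2, which were lower.

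The 4 ATRX-only genes that passed were Igfbp6, Tm4sf1 and Ubb, which rose, and Thbs1, which fell. Igfbp6, a binding protein of insulin-like growth factors, was at 3.75 and 2.68 TPM in WT and 15.1 and 23.3 TPM in ATRXΔRBR (log2 2.52 ± 0.38, edgeR adjusted p = 0.0070). Thbs1, the thrombospondin gene, was at 82.4 and 101 TPM in WT and 60.2 and 45.6 TPM in ATRXΔRBR (log2 −0.86 ± 0.18, edgeR adjusted p = 0.029). Vim, the intermediate filament gene of fibroblasts, was the most abundant ATRX-only gene, at 5534 and 6235 TPM in ATRXΔRBR and 5615 and 3903 TPM in WT, and did not pass (edgeR adjusted p = 0.59).

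Among EZH2-only genes, Col2a1, the cartilage collagen gene, had the best ranked position and was also among those that rose most. It was at 0.92 and 1.21 TPM in WT and 10.2 and 8.63 TPM in ATRXΔRBR (log2 3.41 ± 0.24, edgeR adjusted p = 0.00037). H60b, a ligand gene of the NKG2D receptor, went from 0.28 and 0.85 to 14.4 and 5.61 TPM, and Tesc, for a calcium-binding protein, and Kif26a, for an atypical kinesin, rose to at most 2.36 TPM. On the other side Dnaja4, a cochaperone gene, was at 7.88 and 9.41 TPM in WT and at 0 and 0.08 TPM in ATRXΔRBR. Shroom2, Fgd4 and Epha7, genes for an actin-binding protein, an exchange factor of Cdc42 and an ephrin receptor, were listed at 0 TPM in both ATRXΔRBR libraries and lay between 0.35 and 2.01 TPM in WT. By contrast Dnaja4 was at 25.2 and 25.1 TPM in the libraries labelled ATRXKD.

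Members of the developmental lists with EZH2-only positions that passed the edgeR test were named after their values were seen. Most were lower in ATRXΔRBR, as were 122 of the 154 genes that passed among all EZH2-only genes with H3K27me3. Sox11, a neural factor gene, was at 3.38 and 1.68 TPM in WT and 0.13 and 0.10 TPM in ATRXΔRBR. Wnt5a, a ligand of non-canonical Wnt signalling, was at 12.7 and 13.9 TPM in WT and 1.92 and 3.21 TPM in ATRXΔRBR. Sox2, Gata6, Nkx3-2, Lhx1 and Lhx2, which encode developmental transcription factors, were also lower, by 1.23 to 2.34 on the log2 scale, while Hoxa10 and the receptor gene Fzd5 were higher. All of these except Fzd5 had H3K27me3 at the TSS. Over the whole lists, 7 of 37 other homeobox factors tested were lower and 1, Pax3, was higher, and Pax3 had no position. Of all protein-coding genes tested 5.03% were lower and 3.35% higher. Of 17 Wnt ligands and receptors 3 were lower and 1 higher, and of 30 collagens 6 were higher and 4 lower. Of the PRC2 genes Ezh1, which had no position, was the 1 of 12 that passed, at 12.3 and 16.5 TPM in WT and 35.2 and 26.5 TPM in ATRXΔRBR. Of 21 imprinted genes 3 were higher and 3 lower, and of these only Trappc9 had an EZH2-only position.

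EZH2 lists from the cells labelled ATRXKD held 67.4% and 76.3% of the shared positions at a TSS and 46.1% and 56.8% of the EZH2-only ones. Away from TSSs they held 14.6% and 26.3% of the shared and 18.2% and 23.2% of the EZH2-only positions. At TSSs the shared class was higher in both replicates, and elsewhere the order changed between them. H3K27me3 lists from these cells held 10.2% and 9.69% of the EZH2-only, 0.683% and 0.683% of the shared, and 3.47% and 3.47% of the ATRX-only positions. ATRX peaks of these cells were not analysed here.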

How the data were processed

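CUT&RUN reads were mapped by the authors to mm10 with Bowtie2 at default settings. The authors then called peaks with MACS2 (broad mode), one library at a time. Each deposited peak has a fold enrichment, which is MACS2's ratio of signal over local background, and a deposited −log10 q from the same caller. The lists do not give the read depth, on which the number of peaks can depend. RNA-Seq reads were aligned by the authors with STAR, and the deposited estimated counts and TPM values per gene came from RSEM. Sums of estimated counts lay between 9051693 and 21723647 per library.

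Positions were built with Python 3.11.15, numpy 2.4.6, pandas 2.3.3 and pysam 0.24.0, placed on the GENCODE M21 annotation of GRCm38 (55413 genes on assembled chromosomes) and counted at a TSS when the peak reached within 2 kb of it. Peaks outside assembled chromosomes had no place or sequence, which leaves 1025 shared and 1010 ATRX-only positions there. Motifs were counted in 300 bp at the midpoint. Genes with positions of several classes went to the shared class first. RNA of ATRXΔRBR and WT cells was compared with edgeR 4.0.16 (R 4.3.3), using the quasi-likelihood test on rounded estimated counts of genes with more than 10 in total, TMM scaling and Benjamini-Hochberg adjusted p-values called under 0.05. The study calls the 2 replicates biological, and the p-values measure the spread between these libraries. DESeq2 1.42.0 was an alternative. Classes were described by shares and medians without a test, with single replicates (n = 2) as the spread.

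The positions, gene lists and tests were chosen with earlier results of these data known. Named genes were, for each class, the 8 best mean ranks of −log10 q at a TSS, the 4 largest rises and falls past the threshold with at least 10 counts, and the most abundant members of each list. The cholesterol and heat shock lists were added after the values were seen. A ranked gene and some sequences are not reported here.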

Additional observations from a re-analysis of the deposited data

How the results depend on the processing

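Of 170 values recomputed under another setting, 111 stayed within the spread or threshold used and 59 moved. Most are shares, medians or counts, which cannot change sign, but orders changed. The TSS share was higher for shared than for EZH2-only positions in replicate 1 and lower in replicate 2, and among genes of at least 5 TPM the ATRX-only median passed the shared one. With replicate 1 or replicate 2 lists alone, the share of ATRX peaks shared with EZH2 ranged from 39.5% to 74.6%. The TSS share ranged from 44.8% to 58.1% for shared, 14.4% to 15.2% for ATRX-only and 48.1% to 70.9% for EZH2-only positions. Median width ranged from 345 to 387 bp, 322 to 328 bp and 436 to 522 bp, median TPM from 39.4 to 42.8, 6.56 to 23.1 and 24.1 to 26.3, and the share in H3K27me3 peaks kept in both replicates from 0.706% to 1.05%, 0.417% to 1.08% and 22.6% to 35.9%, each in that order. With a q of 0.01 or less, 0.560% of shared positions lay in H3K27me3, ATRX-only and EZH2-only widths were 455 and 924 bp, and the ATRX-only median was 5.56 TPM. With an overlap of 50% of the shorter peak the ATRX-only width was 422 bp. With replicate 2 coordinates, shared and EZH2-only widths were 387 and 439 bp and the ATRX-only TSS share 16.2%. With EZH2 trimmed to as many peaks as ATRX, the shared share was 13.9%, TSS shares were 86.4% for shared and 24.6% for ATRX-only, 2.80% of shared positions lay in H3K27me3, ATRX-only and EZH2-only widths were 428.5 and 992.5 bp, and the ATRX-only median was 39.6 TPM. With no peak of the other target in either list, the ATRX-only TSS share was 13.5% and width 386.5 bp, and the medians were 3.90 TPM for ATRX-only and 23.3 TPM for EZH2-only genes. A 1 kb window gave an ATRX-only TSS share of 10.8% and 28.9 TPM, the midpoint alone 14.1% and 35.3 TPM, and protein-coding TSSs 6.04%. The EZH2 peaks of shared positions were 732 bp wide. Among genes of at least 5 TPM the medians were 50.4, 52.2 and 42.4 TPM, and of at least 1 TPM 47.9, 39.5 and 37.2 TPM. H3K27me3 peaks of either replicate held 1.27% of shared positions. The cause of these moves was not tested.

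Leaving out 1 RNA-Seq library gave 1050 to 1523 called genes in all, 15 to 27 shared, 5 to 7 ATRX-only and 311 to 463 EZH2-only. With at least 10 counts in every library 597 genes (315 higher, 282 lower) and 215 EZH2-only genes were called, and with no filter 25 shared, 11 ATRX-only and 503 EZH2-only. The replicate numbers did not pair the libraries (correlation of deviations −0.37 over 16287 genes), and a fit with the number as a block called 1068 genes, 10 of them shared. A crossed pairing, added after seeing the data, called 5547 genes, of them 184 shared, 33 ATRX-only and 2339 EZH2-only. Peak lists without read depth, 2 libraries per group and a single clone limit what can be compared.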
